A study of Homo sapiens with 6 samples.

Results

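The MHC class I pathway was described in BCPAP cells, a human line of papillary thyroid cancer, through 9 genes: HLA-B, HLA-C, HLA-E, HLA-F, B2M, TAP1, TAP2, TAPBP and NLRC5. Every probe set that the platform annotation paired with exactly 1 of these symbols was taken, which gave 43 of 49293 probe sets, and 9 of 18132 genes. A probe set is a group of short array probes that read 1 transcript or several related ones. The cells in the shCSF2 group received lentivirus with a short hairpin RNA against CSF2, which encodes the cytokine GM-CSF, and those in the shCtrl group received a non-targeting hairpin. Both groups were otherwise the same line, and both were put under puromycin for 7 days, starting 48 hours after transduction. Each group held 3 Affymetrix PrimeView arrays, called biological replicates in the labels. One cell line was used, and how many hairpins were tried against CSF2 is not stated in the labels. The CSF2 transcript, which would check the hairpin, was not analysed here. In such bulk RNA, fewer expressing cells and less RNA per cell cannot be told apart.

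Class I molecules carry peptides from inside the cell to its surface, where CD8 T cells and natural killer cells inspect them. A heavy chain, such as HLA-B, folds with the light chain beta-2-microglobulin, the product of B2M. The TAP1 and TAP2 proteins form the pump that moves peptides into the endoplasmic reticulum, and tapasin, encoded by TAPBP, holds empty class I molecules beside that pump until a peptide binds. NLRC5 is a transactivator that acts with the RFX, CREB and NF-Y factors bound at class I promoters, and interferon-gamma is the classical inducer of the whole set. Heavy chain loss is a known way for tumour cells to avoid T cells.

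The deposited table holds a log2 signal for every probe set on every array, and a difference of 1 is a doubling of signal. Array medians lay between 5.77 and 5.79. Between arrays of 1 group the correlation over probe sets, which are not independent, averaged r = 0.998, and between arrays of different groups r = 0.994. The keratin genes KRT8 and KRT18 (mean log2 value 10.29 and 11.78) and the thyroid transcription factor genes NKX2-1 and PAX8 (9.57 and 8.09) were well measured. The differentiated thyroid genes TG and TSHR were dim (4.59 and 3.87), as were the epithelial cadherin gene CDH1 (3.57) and the keratin gene KRT19 (4.08). None of 11 leukocyte markers was called, and 8 of them averaged under 5. PTPRC, which marks all leukocytes, averaged 2.34, under the median of 2.52 over the array's 23 antigenomic background probe sets, which ranged from 1.72 to 10.64. The brightest leukocyte markers were CD68 (6.95), NKG7 (5.79) and KLRD1 (5.65). Summed over the 11 markers, the log2 level was 8.25 to 8.38 in shCSF2 and 8.38 to 8.42 in shCtrl arrays, and its part in the results was not tested. None of 8 fibroblast and endothelial markers was called, with summed levels of 8.30 to 8.36 and 8.36 to 8.48. Their means ran from 3.11 to 6.55, and 3 of them averaged under 5. Of 10 thyroid and epithelial markers, KRT8 (-0.26 ± 0.05) and NKX2-1 (-0.42 ± 0.04) were lower in shCSF2 cells. The 3'-minus-5' log2 difference of the GAPDH control probe sets averaged -0.01 ± 0.01 in shCSF2 and -0.03 ± 0.01 in shCtrl arrays (SD, n = 3; exact two-sided permutation test, p = 0.1, the smallest possible here). For the ACTB control it was 0.61 ± 0.05 and 0.59 ± 0.05 (exact p = 0.6).

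The comparison asked how transcripts of class I presentation differ when CSF2 is targeted. The heavy chain genes HLA-B, HLA-C and HLA-F were 1.38- to 1.54-fold lower in shCSF2 cells by the brightest probe set of each gene. B2M, HLA-E, TAP1 and TAPBP were lower by 1.08- to 1.21-fold, and TAP2 was 1.15-fold higher. NLRC5 was not called. By probe set, 16 of the 43 were lower and 3 higher (limma, Benjamini-Hochberg adjusted p under 0.05 over all probe sets). Over all 49293 probe sets, 13.8% were called lower and 15.3% higher, together 29.1%. The 3 higher probe sets all belonged to TAP2, and each of the other 7 genes with a call had calls in the lower direction only. The median log2 fold change was -0.13 over the 43 probe sets and -0.02 over all probe sets.

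Brighter probe sets were called more often. Of the 35 probe sets with a mean log2 value of at least 5, 18 were called, against a background of 40.8% at that brightness. Of the 8 dimmer ones 1 was called. The groups did not overlap in 27 of the 43 probe sets, against 43.8% of all probe sets. In 24 of these the shCSF2 arrays lay below the shCtrl arrays, a pattern held by 22.5% of all probe sets. By the brightest probe set, the groups were separate in 8 of the 9 genes, against 46.7% of all genes.

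**Figure D1:**
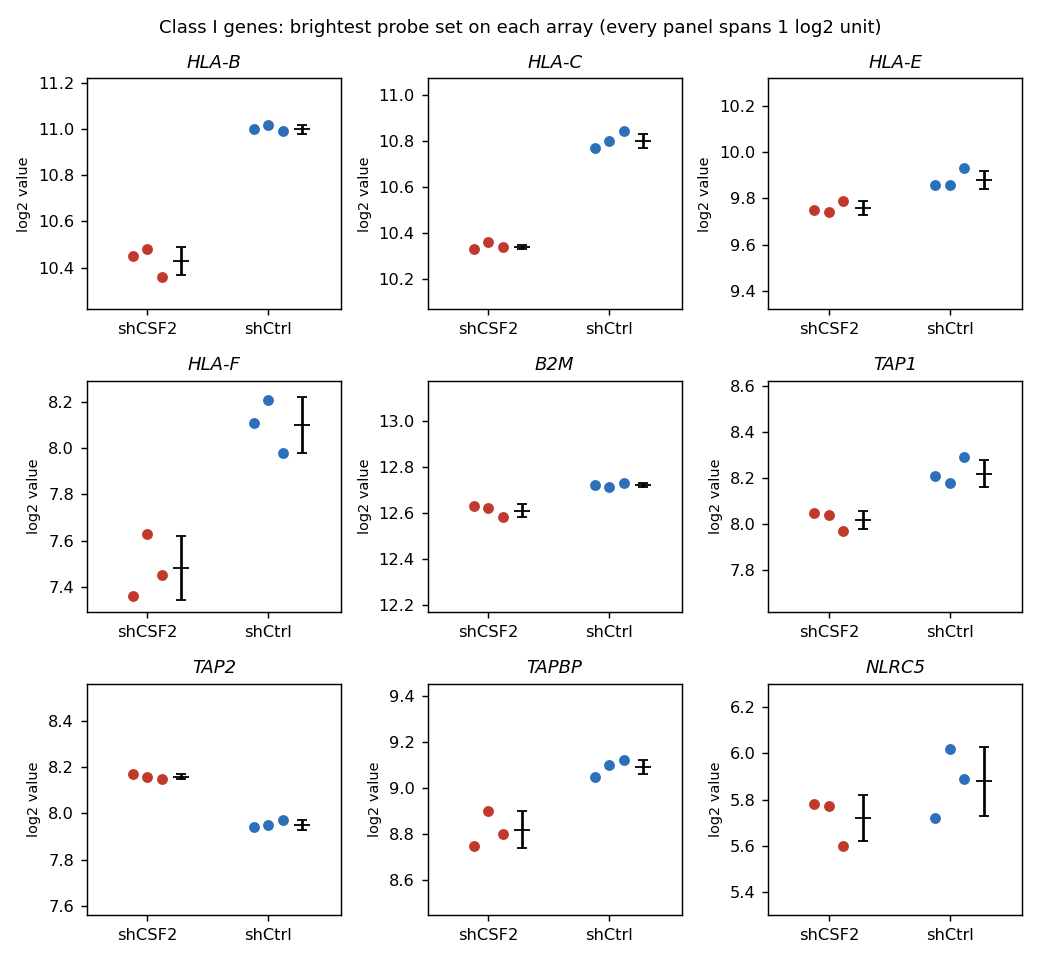
Log2 values of the brightest probe set of each gene on the 6 arrays, with shCSF2 in red left of shCtrl in blue and black bars for mean ± SD (n = 3). Each panel spans 1 log2 unit, so distances can be compared between panels; the groups are separate in every gene except NLRC5, and TAP2 alone is higher in shCSF2.

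HLA-B encodes a classical class I heavy chain that presents peptides to CD8 T cells. Its brightest probe set (11755966_x_at) read 10.45, 10.48 and 10.36 in shCSF2 arrays and 11.00, 11.02 and 10.99 in shCtrl arrays. The groups were far apart compared with their spread, and HLA-B was 1.49-fold lower with the CSF2 hairpin (log2 fold change -0.57 ± 0.04, moderated SE, n = 3 per group; limma by gene, adjusted p = 0.000135). A second bright probe set gave -0.59 ± 0.04. The third HLA-B probe set, 11762851_at, was dim at 4.57 in shCSF2 and 4.54 in shCtrl arrays and was not called (0.03 ± 0.09). Averaging the dim one in lowered the size of the HLA-B change to -0.38, which still passed.

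HLA-C encodes another classical heavy chain, which is also the main ligand of killer-cell immunoglobulin-like receptors. All 3 of its probe sets fell. The brightest read 10.33, 10.36 and 10.34 in shCSF2 arrays and 10.77, 10.80 and 10.84 in shCtrl arrays, a difference of -0.46 ± 0.03 (adjusted p = 0.000143). The other HLA-C probe sets gave -0.34 ± 0.04 and -0.51 ± 0.04. Within each group the 3 arrays of every HLA-C probe set lay much closer together than the groups did.

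HLA-F encodes a nonclassical heavy chain with limited polymorphism that natural killer cell receptors can bind. Its brightest probe set read 7.36, 7.63 and 7.45 in shCSF2 arrays and 8.11, 8.21 and 7.98 in shCtrl arrays. That probe set was 1.54-fold lower (-0.62 ± 0.08, adjusted p = 0.00156). Of 10 HLA-F probe sets, 5 fell and 5 were not called. The 5 that were not called averaged 3.09 to 3.95, near the low end of the array, and their changes ran from -0.16 to -0.01. Without shCSF2 replicate 3, 2 of them passed, at -0.26 and -0.24, against -0.16 and -0.09 with all arrays. Those that fell averaged 4.90 to 7.79, and the next-brightest pair gave -0.62 ± 0.05 and -0.69 ± 0.04. The dimmest of the 5 (-0.21 ± 0.07) passed under 6 of 13 alternatives. It lost its call without any 1 of shCSF2 replicates 1 and 2 and shCtrl replicates 1 and 2. The call was also lost with quantile normalisation, cyclic loess and the replicate block. The next dimmest (-0.33 ± 0.07) lost its call without shCtrl replicate 1. The mean of all 10 probe sets was -0.28, with the call kept.

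HLA-E encodes the nonclassical heavy chain that shows leader peptides of other class I molecules to the NKG2A receptor. It behaved differently from the 3 genes above. The brightest HLA-E probe set read 9.75, 9.74 and 9.79 in shCSF2 arrays and 9.86, 9.86 and 9.93 in shCtrl arrays. The groups were separate but close, with a change of -0.13 ± 0.04 that passed when adjusted over genes (adjusted p = 0.0400) and not over probe sets (adjusted p = 0.0566). The gene call was lost without any 1 of the 6 arrays, with the adjusted p over all alternatives between 0.00133 and 0.109. Of 6 HLA-E probe sets 2 fell (-0.27 ± 0.04 and -0.13 ± 0.04). The steeper one passed under all 15 alternatives, and the other under 8 of 15, losing its call without any 1 array. The other 4 had changes of -0.13 to -0.05 and did not pass.

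Class I heavy chains are close paralogs, and a transcript of 1 can hybridise to probes of another. Of the 22 heavy chain probe sets, 14 carried the suffix x, which marks probes that may match other transcripts, and 9 of those were lower. Of the 8 without it 3 were lower, namely 1 of 4 with suffix a, 1 of 2 with suffix s and 1 of 2 with no letter. These 3 averaged 7.07, 9.51 and 4.90. Those not called averaged 3.09 to 3.87 with suffix a, 8.43 with suffix s and 4.56 with no letter. Most with suffix x averaged at least 5, so suffix and brightness cannot be told apart in these shares. The steepest change of any heavy chain probe set, -0.69 ± 0.04 for HLA-F, came from 1 with suffix a, which marks probes shared only by transcripts of 1 gene. Both bright HLA-B and all 3 HLA-C probe sets had suffix x, so their separate values cannot be told apart from a shared signal.

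**Figure D2:**
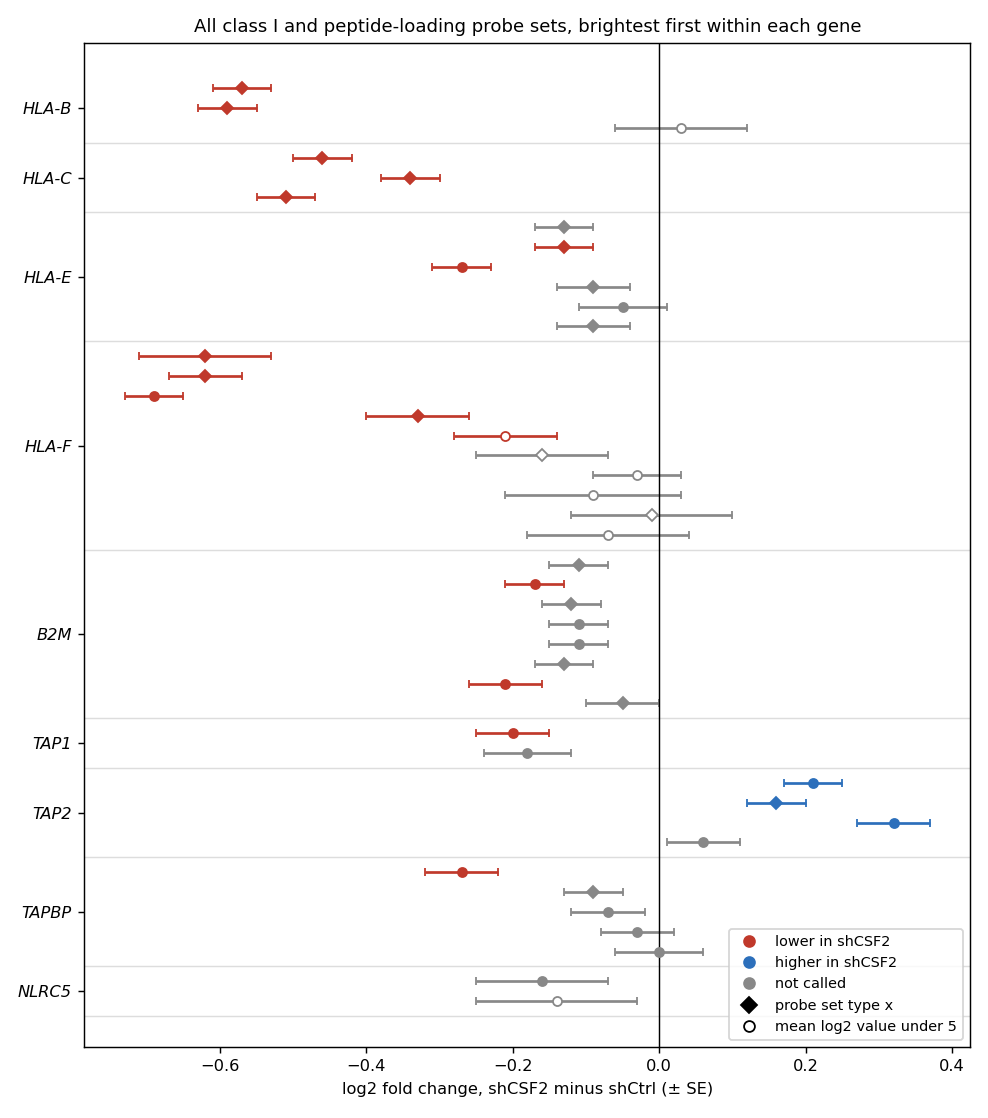
Log2 fold change (shCSF2 minus shCtrl) with its standard error for each of the 43 probe sets, grouped by gene with the brightest at the top of each group. Red marks probe sets lower and blue those higher in shCSF2, grey those not called, diamonds those with suffix x, and open symbols a mean log2 value under 5; bright HLA-B, HLA-C and HLA-F probe sets lie left of -0.30, those of TAP2 right of 0.

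B2M, the light chain gene, serves every class I molecule. Its brightest probe set read 12.63, 12.62 and 12.58 in shCSF2 arrays and 12.72, 12.71 and 12.73 in shCtrl arrays. The shCSF2 arrays all lay lower, by a small step of -0.11 ± 0.03 (adjusted p = 0.0423 over genes). This call was lost without any 1 of the 6 arrays, and the adjusted p over all alternatives ran from 6.3e-05 to 0.122. Over probe sets the same one did not pass (adjusted p = 0.0634). Of 8 B2M probe sets 2 fell (-0.17 ± 0.04 and -0.21 ± 0.05), and 7 had no overlap between groups. These calls passed under 13 and 11 of 15 alternatives, and both were lost without shCSF2 replicate 3 or shCtrl replicate 1, the second also without replicate 2 of either group. Its 2 suffix s probe sets held identical values on all arrays and so count as 1 measurement.

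The steps of the heavy chains were set against that of B2M within each array, a comparison chosen after the values were seen. B2M probe sets averaged 11.78 to 12.67, brighter than the brightest of HLA-B (10.72). Whether signal that high still scales with the amount of RNA was not tested. The HLA-B minus B2M log2 difference ran from -2.21 to -2.14 in shCSF2 and from -1.74 to -1.69 in shCtrl arrays, a shift of -0.46 ± 0.03 (SE). The shift was -0.35 ± 0.03 for HLA-C and -0.51 ± 0.11 for HLA-F against B2M. For HLA-E against B2M it was -0.02 ± 0.04, with overlapping groups (exact p = 0.6). HLA-B also shifted by -0.45 ± 0.06 against HLA-E. Where the groups did not overlap the exact two-sided permutation p was 0.1, the smallest that 3 arrays against 3 allow, and the adjusted p was 0.12 over the 6 pairs compared.

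TAP1, 1 of the subunits of the peptide pump, read 8.05, 8.04 and 7.97 in shCSF2 arrays and 8.21, 8.18 and 8.29 in shCtrl arrays by its brighter probe set. The groups did not overlap, and the change was -0.20 ± 0.04 (adjusted p = 0.0116). Adjusted over probe sets, this call was lost with the replicate block (limma, adjusted p = 0.0505) and without shCSF2 replicate 3 (-0.18). The dimmer TAP1 probe set gave -0.18 ± 0.06 and did not pass (adjusted p = 0.0547 over probe sets). It passed under 8 of 15 alternatives, among them without that array (-0.22), with adjusted p from 0.00727 to 0.151. TAP2, the partner subunit, went the other way. Its brightest probe set read 8.17, 8.16 and 8.15 in shCSF2 arrays and 7.94, 7.95 and 7.97 in shCtrl arrays, a rise of 0.21 ± 0.03 (adjusted p = 0.00286). Of 4 TAP2 probe sets 3 rose, the most by 0.32 ± 0.05, and the last gave 0.06 ± 0.05. The smallest of the rises (0.16 ± 0.04) lost its call without shCSF2 replicate 1 or shCtrl replicate 1 or 2. The TAP1 minus TAP2 log2 difference was -0.18 to -0.12 in shCSF2 and 0.22 to 0.31 in shCtrl arrays, so it shifted by -0.41 ± 0.03 (exact p = 0.1, adjusted p = 0.12 over 6 pairs).

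TAPBP, the gene of tapasin, depended on the probe set. The brightest read 8.75, 8.90 and 8.80 in shCSF2 arrays and 9.05, 9.10 and 9.12 in shCtrl arrays and fell (-0.27 ± 0.05, adjusted p = 0.00474). The other 4 TAPBP probe sets gave changes of -0.09 to 0.00, and none passed. With all 5 averaged the TAPBP change was -0.09 and no longer passed (adjusted p = 0.0717, the highest over its alternatives, which began at 8.95e-06).

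NLRC5, the class I transactivator, read 5.78, 5.77 and 5.60 in shCSF2 arrays and 5.72, 6.02 and 5.89 in shCtrl arrays by its brighter probe set. The groups overlapped, and the change of -0.16 ± 0.09 did not pass (adjusted p = 0.208). It was -0.24 without shCtrl replicate 1, -0.09 without shCtrl replicate 2 and -0.10 without shCSF2 replicate 3, and passed in none of these. The other NLRC5 probe set averaged 2.90, close to the median of the antigenomic background, and gave -0.14 ± 0.11. Only the mean of both probe sets passed (-0.15, adjusted p = 0.0469, within 0.0469 to 0.475 over its alternatives).

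Promoters of 7 of the 9 genes were read from RefSeq (GRCh38.p14), from 250 bases before the annotated start to 50 after it. They are shown for HLA-B and HLA-F, which fell most, for B2M, which fell little, and for TAP2, which rose. Capitals mark matches on either strand to CCAAT (the NF-Y box), TGACG (the core of a CREB or ATF site), the core of an interferon response element (TTTC repeated, parted by any pair of bases) and a kappa-B-like site (GGGGA and TCCC, parted by any single base). Such matches are letters only, and binding was not measured.
HLA-B, chr6:31357130-31357429, minus strand: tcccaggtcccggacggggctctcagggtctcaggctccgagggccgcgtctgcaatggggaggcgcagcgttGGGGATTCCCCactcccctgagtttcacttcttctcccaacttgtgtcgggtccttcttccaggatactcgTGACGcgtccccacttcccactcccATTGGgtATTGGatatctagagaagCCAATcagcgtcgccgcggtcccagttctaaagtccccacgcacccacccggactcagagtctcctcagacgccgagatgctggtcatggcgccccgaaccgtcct
HLA-F, chr6:29723184-29723483, plus strand: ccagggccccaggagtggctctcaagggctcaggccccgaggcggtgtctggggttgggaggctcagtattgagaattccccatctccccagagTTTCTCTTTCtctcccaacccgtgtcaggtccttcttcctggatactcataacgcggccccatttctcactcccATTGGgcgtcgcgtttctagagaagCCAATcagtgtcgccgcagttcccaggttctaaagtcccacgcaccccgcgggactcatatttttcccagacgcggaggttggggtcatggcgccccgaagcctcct
B2M, chr15:44711267-44711566, plus strand: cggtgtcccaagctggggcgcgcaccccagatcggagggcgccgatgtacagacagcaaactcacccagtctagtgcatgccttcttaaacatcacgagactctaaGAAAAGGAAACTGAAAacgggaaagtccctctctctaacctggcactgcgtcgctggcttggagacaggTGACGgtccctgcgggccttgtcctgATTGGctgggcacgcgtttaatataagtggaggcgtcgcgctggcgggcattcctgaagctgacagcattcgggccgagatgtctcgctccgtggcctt
TAP2, chr6:32838690-32838989, minus strand: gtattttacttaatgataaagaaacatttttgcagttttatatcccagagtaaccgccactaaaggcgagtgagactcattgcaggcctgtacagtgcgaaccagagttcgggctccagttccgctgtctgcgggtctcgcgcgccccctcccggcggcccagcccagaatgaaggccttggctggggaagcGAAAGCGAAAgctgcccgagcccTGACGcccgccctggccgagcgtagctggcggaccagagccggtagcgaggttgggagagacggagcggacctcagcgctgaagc

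In HLA-B the TGACG match began 106 bases before the start and was followed, 20 bases on, by an inverted CCAAT box. HLA-C had the same pair with 20 bases between, beginning 105 bases before the start, and B2M had it with 21 bases between, beginning 75 bases before the start. This order and spacing was searched after the HLA-B and B2M matches were seen, with 19 to 22 bases between. Read only in the direction of each gene, it occurred in 40 of 35116 RefSeq promoters (0.114%). It resembles the X2 and Y boxes of the class I enhanceosome. The windows of HLA-F, TAP1, TAP2 and TAPBP did not hold it in these exact letters. In HLA-F, TAACG stood in place of TGACG, with 20 bases between it and an inverted CCAAT box. Near matches were not searched, so lack of the exact pair does not show that such boxes are absent. CCAAT began 82 and 57 bases before the start in HLA-F, and 81, 74 and 56 bases before it in HLA-B. The interferon core was matched in HLA-F, B2M, TAP1, TAP2 and TAPBP and in 3.57% of all promoters. Only exact letters were searched, so variants of the element were missed. The lack of a match in HLA-B and HLA-C therefore does not show that they lack such an element. The kappa-B-like letters were matched in HLA-B, read on both strands of 1 nearly palindromic site, and in 0.424% of all promoters. CCAAT was matched in 34.6% and TGACG in 24.6% of all promoters.

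**Figure D3:**
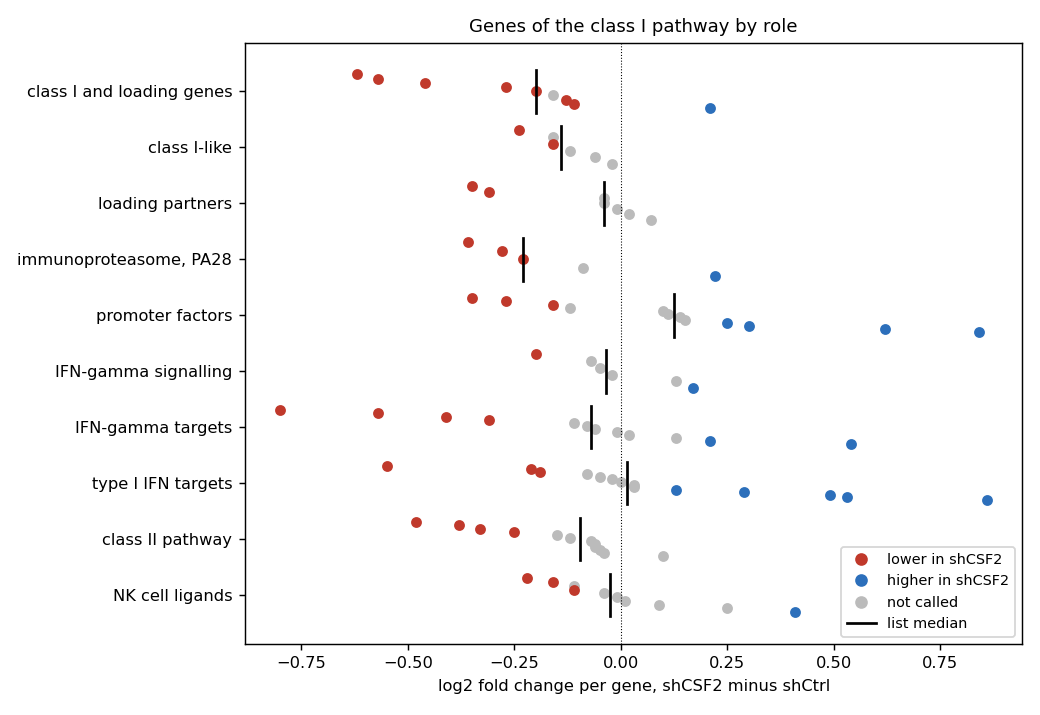
Log2 fold change (shCSF2 minus shCtrl) of each gene by its brightest probe set, 1 row per list, with genes spread vertically within a row only for legibility. Red marks genes lower and blue those higher in shCSF2, grey those not called, and the black bar is the list median, which is -0.20 for the class I and loading genes and 0.13 for the promoter factors.

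The genes around these were described by role, each by its brightest probe set and adjusted over all 18132 genes, of which 32.7% were called (16.0% lower and 16.7% higher, median log2 fold change -0.025). By this measure 7 of the 9 class I and loading genes were lower and 1 higher. Of 5 measured genes of the immunoproteasome and its PA28 cap, which cut proteins into peptides for class I, 3 were lower and 1 higher. The catalytic subunit gene PSMB8 averaged 9.03 ± 0.04 in shCSF2 and 9.39 ± 0.02 in shCtrl arrays (SD, n = 3), a log2 fold change of -0.36 ± 0.04 (-0.24 with all its probe sets averaged). PSMB9 (-0.23 ± 0.03) and the cap gene PSME1 (-0.28 ± 0.04) also fell. PSMB10, the third catalytic subunit gene, was higher (0.22 ± 0.06). By its brightest probe set it lost that call without any 1 of the arrays except shCtrl replicate 3, with values of 0.17 to 0.23. All 3 of its probe sets were called higher, and their mean was 0.24, with the call kept. Of 7 partners in peptide trimming and loading 2 were lower. ERAP1, whose aminopeptidase trims peptides in the endoplasmic reticulum, and the chaperone gene CALR fell (-0.35 ± 0.04 and -0.31 ± 0.04). The other 5, among them ERAP2, CANX and PDIA3, did not pass by their brightest probe sets. Over all their probe sets, 3 of 9 were lower for CANX and 1 of 2 was higher for PDIA3.

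Of 12 transcription factors that act at class I and class II promoters, 4 were higher and 3 lower, and the list median was 0.13. IRF1, the interferon-regulated activator of class I genes, averaged 8.38 ± 0.05 in shCSF2 and 7.54 ± 0.06 in shCtrl arrays and rose by 0.84 ± 0.05 (0.55 with all its probe sets averaged). NFKB1, a subunit of NF-kB, rose by 0.62 ± 0.04. Of the trimeric RFX complex, RFX5 fell (-0.35 ± 0.04), RFXANK rose (0.30 ± 0.04), and RFXAP was not called. CIITA, the class II transactivator, read -0.12 ± 0.06 and did not pass. The factors of this list thus moved in both directions beside lower HLA-B, HLA-C and HLA-F, and a link between them was not tested. In 2 settings, a filter on mean log2 value of at least 5 and median centring, 7 of the 12 factors were higher.

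Of 6 measured genes of interferon-gamma signalling, the receptor chain gene IFNGR2 fell (-0.20 ± 0.03) and the phosphatase gene PTPN2 rose (0.17 ± 0.04, not called at 0.27 by its most variable probe set). Of 12 interferon-gamma targets, 4 were lower and 2 higher. The 4 lower ones were all guanylate-binding protein genes, led by GBP2, which averaged 6.17 ± 0.05 in shCSF2 and 6.97 ± 0.11 in shCtrl arrays (-0.80 ± 0.06), GBP4 (-0.57 ± 0.07) and GBP1 (-0.41 ± 0.04). With all probe sets averaged GBP2 was -0.49 and GBP4 -0.26. WARS1, a tRNA synthetase gene that interferon-gamma also induces, rose by 0.54 ± 0.04, and so did CD274, the gene of the checkpoint ligand PD-L1 (0.21 ± 0.04). Of 14 type I interferon targets, 5 were higher and 3 lower, with IFIT2 (0.86 ± 0.05), MX1 (0.53 ± 0.04) and XAF1 (0.49 ± 0.05) higher and BST2 (-0.55 ± 0.05) lower. Genes of both interferon lists therefore moved in both directions.

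Of 12 class II pathway genes, 4 were lower and 0 higher. They were HLA-DMA (-0.48 ± 0.07), the protease gene CTSS (-0.38 ± 0.04), the invariant chain gene CD74 (-0.33 ± 0.09) and HLA-DMB (-0.25 ± 0.06), of which both HLA-DM genes averaged under 5. The CD74 call was lost without any 1 of the shCSF2 arrays or shCtrl replicate 2, with values of -0.34 to -0.32 (adjusted p up to 0.0893), and that of HLA-DMB without shCSF2 replicate 2 (-0.23). With all probe sets averaged HLA-DMB was -0.13. CD74 was -0.53 by its most variable probe set and -0.35 with all its probe sets averaged, of which 4 of 5 were called lower. Of 10 ligands of natural killer cell receptors 3 were lower and 1 higher, with ULBP1 up by 0.41 ± 0.07 and NECTIN2 (-0.22 ± 0.04), MICB (-0.16 ± 0.03, or -0.24 by its most variable probe set) and ULBP2 (-0.11 ± 0.04) down. The ULBP2 call was lost without any 1 array, with values of -0.13 to -0.10. Of 6 class I-like genes, PROCR (-0.24 ± 0.04) and the iron regulator gene HFE (-0.16 ± 0.04) fell, and 4 were not called. HFE lost its call without shCSF2 replicate 2 or 3 or shCtrl replicate 1 or 3 (-0.16 to -0.13), and read -0.29, not called, by its most variable probe set. HLA-G, a nonclassical heavy chain gene of placental trophoblast, averaged 5.60 in shCSF2 and 5.68 in shCtrl arrays by its brightest probe set and did not pass (-0.08 ± 0.05), nor did any of its 6 probe sets.

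**Figure D4:**
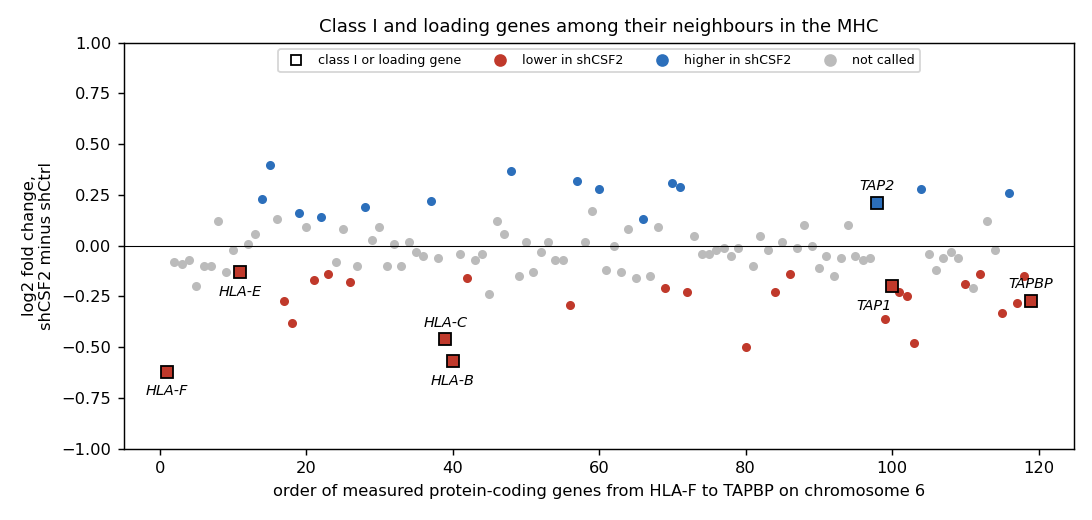
Log2 fold change (shCSF2 minus shCtrl) of the 119 measured protein-coding genes from HLA-F to TAPBP, in chromosomal order on chromosome 6. Squares with names are the 7 class I and loading genes and circles the other genes, red where lower, blue where higher in shCSF2 and grey where not called. Both colours occur along the order, with a run of lower genes from PSMB8 to HLA-DMA.

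Of the 9 genes, 7 lie in the MHC on chromosome 6, B2M on chromosome 15 and NLRC5 on chromosome 16. Of the 112 other measured protein-coding genes between HLA-F and TAPBP in RefSeq order, a span chosen after the values were seen, 21 were lower (18.8%) and 14 higher, with a median of -0.05. That share was close to the 16.0% of all genes. TAP2, PSMB8, TAP1 and PSMB9 are consecutive in this order, and TAP2 alone of the 4 was higher. HLA-DMB and HLA-DMA come next among the measured genes and were lower too. HLA-C and HLA-B, both lower, are also neighbours.

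The genes whose 6 centred log2 values were closest to those of HLA-B, among 9795 others with a mean of at least 6, were CAMTA1, ID3 and ABI3BP, with root mean square differences of 0.018, 0.028 and 0.028. CAMTA1 read 9.64, 9.68 and 9.55 in shCSF2 arrays and 10.17, 10.23 and 10.21 in shCtrl arrays. The closest to B2M were CPOX, TARDBP and NPAS3, at 0.008, 0.009 and 0.010. With 2 groups this measure mostly reads the size and direction of the group difference.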

How the data were processed

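Total RNA (200 ng per sample) was labelled and hybridised to PrimeView arrays, whose probes lie toward the 3' end, per the labels' protocols. The authors deposited log2 summaries, 1 for each probe set on each array. RMA, oligo and limma are listed in the submitters' processing notes, with no version or role. The values have the range and near-equal quartiles of RMA output, in which differences between dim probe sets are compressed. Normalisation was not redone from probe-level data.

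The table lists 49395 probe sets, 102 of them controls. Of the remaining 49293, the platform annotation paired 44988 with 1 gene, 1832 with several and 2473 with none listed. The brightest probe set represented each of 18132 genes. Differences (shCSF2 minus shCtrl) were tested with limma 3.58.1 (lmFit, eBayes; R 4.3.3), with no covariate, over all probe sets and again over all genes, with Benjamini-Hochberg adjustment and a threshold of 0.05. "Called" means past that threshold. Standard errors are moderated. The fit was tested on simulated data with far fewer called features than here. Log2 changes of 0.3 were recovered for 36% of changed probe sets and 38% of changed genes. Those of 0.5 were recovered for 66% and 92%. False calls made up 7 of 148 probe set calls and 14 of 176 gene calls, the second share above the threshold of 0.05. Changes of 0.3 or less can be missed here too. The adjusted threshold depends on how many features are called, so these shares do not carry over to the real data. Single values were compared by exact two-sided permutation with scipy 1.17.1.

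The genes, lists and settings were chosen with earlier results of these data known. Every class I gene was named. From each list, the 4 called genes with the largest change were named, or 2 where none was called, plus RFX5, CIITA, IRF1, PSMB8, PSMB9, CALR and ERAP1. Others are examples named after their values were seen. Listed genes with no single-gene probe set were not analysed here. The labels call the replicates biological and do not say whether cultures were separate, so p-values measure the spread between these arrays, and 3 arrays per group limit the precision. The alternatives were filters on dim features, renormalisations, other variance models, array weights, other ways to pick a gene's probe set, the replicate block and leaving out each array.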

Additional observations from a re-analysis of the deposited data

How the results depend on the processing

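The count of class I and loading probe sets called was 19, and stayed within 1.5 times that under every alternative run, from 13 without shCtrl replicate 1 to 26 with a variance trend and robust estimation. Leaving out 1 array gave 13 to 18. The count of genes called was 8, and between 6 and 8 under the alternatives, with 6 whenever an array was left out. With the replicate block 17 probe sets and 6 genes were called. Arrays with the same number correlated in their deviations from the group means with r = 0.03 to 0.05, and those with different numbers with r = -0.06 to 0.03, so the numbers were not taken to pair the arrays. HLA-B, HLA-C, HLA-F, TAP1 and TAP2 kept their gene calls and directions under all 16 alternatives each. B2M was called under 7 of 16 and HLA-E under 8 of 16, and both were lost under median centring (-0.09 and -0.10). The choice of probe set moved HLA-E to -0.27, B2M to -0.21, HLA-F to -0.69 and TAP2 to 0.32 by the most variable one. No called value of a named gene changed sign under any alternative run. Low signal limits what 1 of the NLRC5 and 5 of the HLA-F probe sets could show.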

Other observations

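A further probe set, 11759581_x_at, was left out of the counts because the annotation pairs it with both HLA-B and HLA-C. It was dim, at 4.40, 4.41 and 4.38 in shCSF2 arrays and 4.96, 4.86 and 4.90 in shCtrl arrays. The groups did not overlap, and its change of -0.51 ± 0.04 (SE, n = 3 per group; limma over all probe sets, adjusted p = 0.000226) lay between those of the bright HLA-B and HLA-C probe sets.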
